A study of Rattus norvegicus with 10 samples.

Results

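Heat shock proteins and chaperones were examined in the RNA of plasma exosomes (small membrane vesicles shed by cells) by reading out 10 listed genes: Hspa1a, Hspa1b, Hspa8, Hspa5, Hsp90aa1, Hsp90ab1, Hspb1, Dnajb1, Hsph1 and Hspd1. A gene was taken as measured where the platform annotation gave its symbol alone to a transcript cluster, the array's unit of measurement, and a gene with several clusters was represented by the one of highest average signal. This gave 9 of the 10 genes, among 22098 genes with such a cluster, and Hspa1b had none. There were 5 male Wistar rats with remote ischemic conditioning (RIC), in which blood flow to a distant body part is stopped and restored, here in 4 cycles, each with 5 min without flow and 5 min with flow restored. They were compared with 5 male Wistar rats labelled as healthy controls, although the labels carry the conditioning protocol on all 10 samples. Venous blood (10 mL in EDTA) was drawn per animal, differential centrifugation gave the exosomes, and their total RNA was hybridised to 1 Affymetrix array per animal. The sources used here name neither the body part made ischemic nor the time of sampling.

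Chaperones bind unfolded proteins and help them to fold, and cells raise many of them after heat, oxidants or ischemia through the transcription factor HSF1. The HSP70 proteins (Hspa1a and Hspa8 in the cytosol, Hspa5 in the endoplasmic reticulum) hold unfolded chains with the help of J-domain proteins such as Dnajb1 and of nucleotide exchange factors such as Hsph1. The HSP90 proteins finish the folding of kinases and steroid receptors, Hspb1 is a small heat shock protein that holds unfolded proteins without ATP, and Hspd1 forms the folding chamber of mitochondria. HSP70 and HSP90 proteins, Hspa8 above all, are commonly found as proteins inside exosomes, while the present values measure RNA.

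The promoters of the members were searched for elements known to control this family. The heat shock element, the binding site of HSF1, was searched in a form of 3 units, GAANNTTC followed after any 2 bases by another GAA, on both strands in the 250 bases before the start of each gene in the RefSeq promoters of build GRCr8, where 8 of the 10 members had an entry. It was present before Hspa8, Hsph1 and Hspd1, and in 222 of all 33469 promoters (0.663%). The shorter form GAANNTTC, which reads the same on both strands and lies inside the longer one, was also present before Dnajb1 and Hspb1, and in 7.23% of all promoters. The searched letters were not in the windows of Hspa1a and Hsp90ab1. The element of the endoplasmic reticulum stress response, CCAAT followed after any 9 bases by CCACG, on either strand, was present before Hspa5 and in 22 of all promoters (0.0657%), of which 7 belong to the chaperone genes described further on. The 4 promoters shown are those in which the searched letters can be compared between a cytosolic chaperone that is always made (Hspa8), stress-inducible ones (Hsph1, Dnajb1) and the endoplasmic reticulum chaperone (Hspa5), each on the strand of the gene, 5′ to 3′, up to the last base before the start. Capitals mark the searched element.
Hspa8 promoter, chr8:50080264-50080513, plus strand, 3-unit heat shock elements in capitals: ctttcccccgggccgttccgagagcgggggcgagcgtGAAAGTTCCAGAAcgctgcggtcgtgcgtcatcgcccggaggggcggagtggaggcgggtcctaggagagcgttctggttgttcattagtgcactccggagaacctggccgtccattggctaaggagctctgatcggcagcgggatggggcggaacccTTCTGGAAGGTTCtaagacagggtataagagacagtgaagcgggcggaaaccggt
Hsph1 promoter, chr12:10427118-10427367, plus strand, 3-unit heat shock element in capitals: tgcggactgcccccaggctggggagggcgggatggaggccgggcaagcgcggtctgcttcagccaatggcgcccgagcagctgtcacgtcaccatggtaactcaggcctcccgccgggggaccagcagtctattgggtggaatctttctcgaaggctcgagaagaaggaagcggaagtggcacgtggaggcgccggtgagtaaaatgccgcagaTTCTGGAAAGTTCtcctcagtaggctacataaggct
Dnajb1 promoter, chr19:41431142-41431391, minus strand, 2-unit heat shock element in capitals: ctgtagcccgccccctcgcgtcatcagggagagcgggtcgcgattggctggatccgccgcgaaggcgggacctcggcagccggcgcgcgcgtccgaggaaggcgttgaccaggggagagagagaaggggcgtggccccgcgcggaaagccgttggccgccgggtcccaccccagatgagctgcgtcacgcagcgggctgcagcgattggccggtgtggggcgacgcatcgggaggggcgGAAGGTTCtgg
Hspa5 promoter, chr3:38452766-38453015, plus strand, endoplasmic reticulum stress element in capitals: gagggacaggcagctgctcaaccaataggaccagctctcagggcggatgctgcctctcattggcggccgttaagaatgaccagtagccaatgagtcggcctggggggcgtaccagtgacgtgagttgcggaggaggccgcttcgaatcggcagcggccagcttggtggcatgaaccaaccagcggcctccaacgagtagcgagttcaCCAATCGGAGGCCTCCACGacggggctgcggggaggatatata
A match describes the letters of the reference genome and was not measured as a bound site here.

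Values are log2 signals as deposited, with mean ± SD over 5 animals. Clusters of olfactory and vomeronasal receptor genes (1446) served as a measure of background, with a 95th percentile of 4.38, and 8 of the 9 members had a mean above it. Binding strength varies from probe to probe, so these levels do not rank the genes by amount. Vesicle genes such as Cd9 and Sdcbp were above that limit in 8 of 8 cases, with 2 of them at the highest value of the table, 19.93. Platelet and erythroid marker genes were above it in 13 of 13 cases each, so RNA typical of platelets and red cells was present. Neutrophil genes were above it in 6 of 10 cases, monocyte genes in 7 of 9 and B cell genes in 5 of 6. The counts were 8 of 12 for T and natural killer cell genes, 8 of 9 for endothelial and 2 of 8 for liver genes. Of all 68842 clusters 22545 were above the limit, and what the shares of these other lists say about cell types was not tested. Fewer vesicles that carry an RNA, and less of it per vesicle, cannot be told apart in such values.

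No member passed the test between RIC and control rats. The limma fit called 0 of 68842 clusters (0%) at a Benjamini-Hochberg adjusted p under 0.05, as it did with a trended robust variance and with array weights. An unadjusted p under 0.05 was reached by 7665 clusters (11.1%), with 7.97% of all clusters higher and 3.17% lower in RIC. Of the 8 members that varied, 1 (Hspa1a, higher in RIC) had an unadjusted p under 0.05, and the lowest adjusted p among them was 0.401. A total of 7 members were lower and 1 was higher in RIC (median log2 difference -0.11), but only 3 were lower after quantile normalization was repeated and 4 after each array's level-dependent trend was removed. Among all 67405 varying clusters 38.2% were lower, with a median of 0.03. The share was 60.7% among clusters above the receptor limit, and 77.9%, with a median of -0.22, among those with a mean of 6 to 18. The array median of those brighter clusters was 7.46 to 7.84 in RIC rats and 7.74 to 8.33 in control rats, and the 9 measured endothelial genes were all lower in RIC on the deposited scale, with 0 passing and a summed level of 59.1 to 63.9 against 61.1 to 71.7 in control (8 of 9 lower without control 2). Vesicle genes were lower in 6 of 6 varying cases (summed level 77.3 to 79.3 in RIC and 78.2 to 81.6 in control). Platelet genes were lower in 8 of 9 (226 to 235 in RIC and 232 to 237 in control), but in 6 of 9 without RIC 5 (median -0.02). Erythroid genes were higher in 9 of 10 (126 to 143 in RIC and 125 to 129 in control), but in 7 of 10 without RIC 4, where their median fell from 0.28 to 0.16. In each list 0 passed, and the sums of log2 signals include genes with 1 value on all arrays (4 platelet, 3 erythroid and 2 vesicle genes). After repeated quantile normalization 9 of 9 endothelial, 5 of 6 vesicle and 3 of 9 platelet genes were lower. Erythroid genes were then higher in 9 of 10 cases. The part of these lists in the members' values was not tested. Of the 8 varying members 5 had a mean above 6. In every varying member the 2 groups overlapped, against 1.78% of varying clusters in which they did not. The plot of the 9 members by animal shows this overlap.

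**Figure D1:**
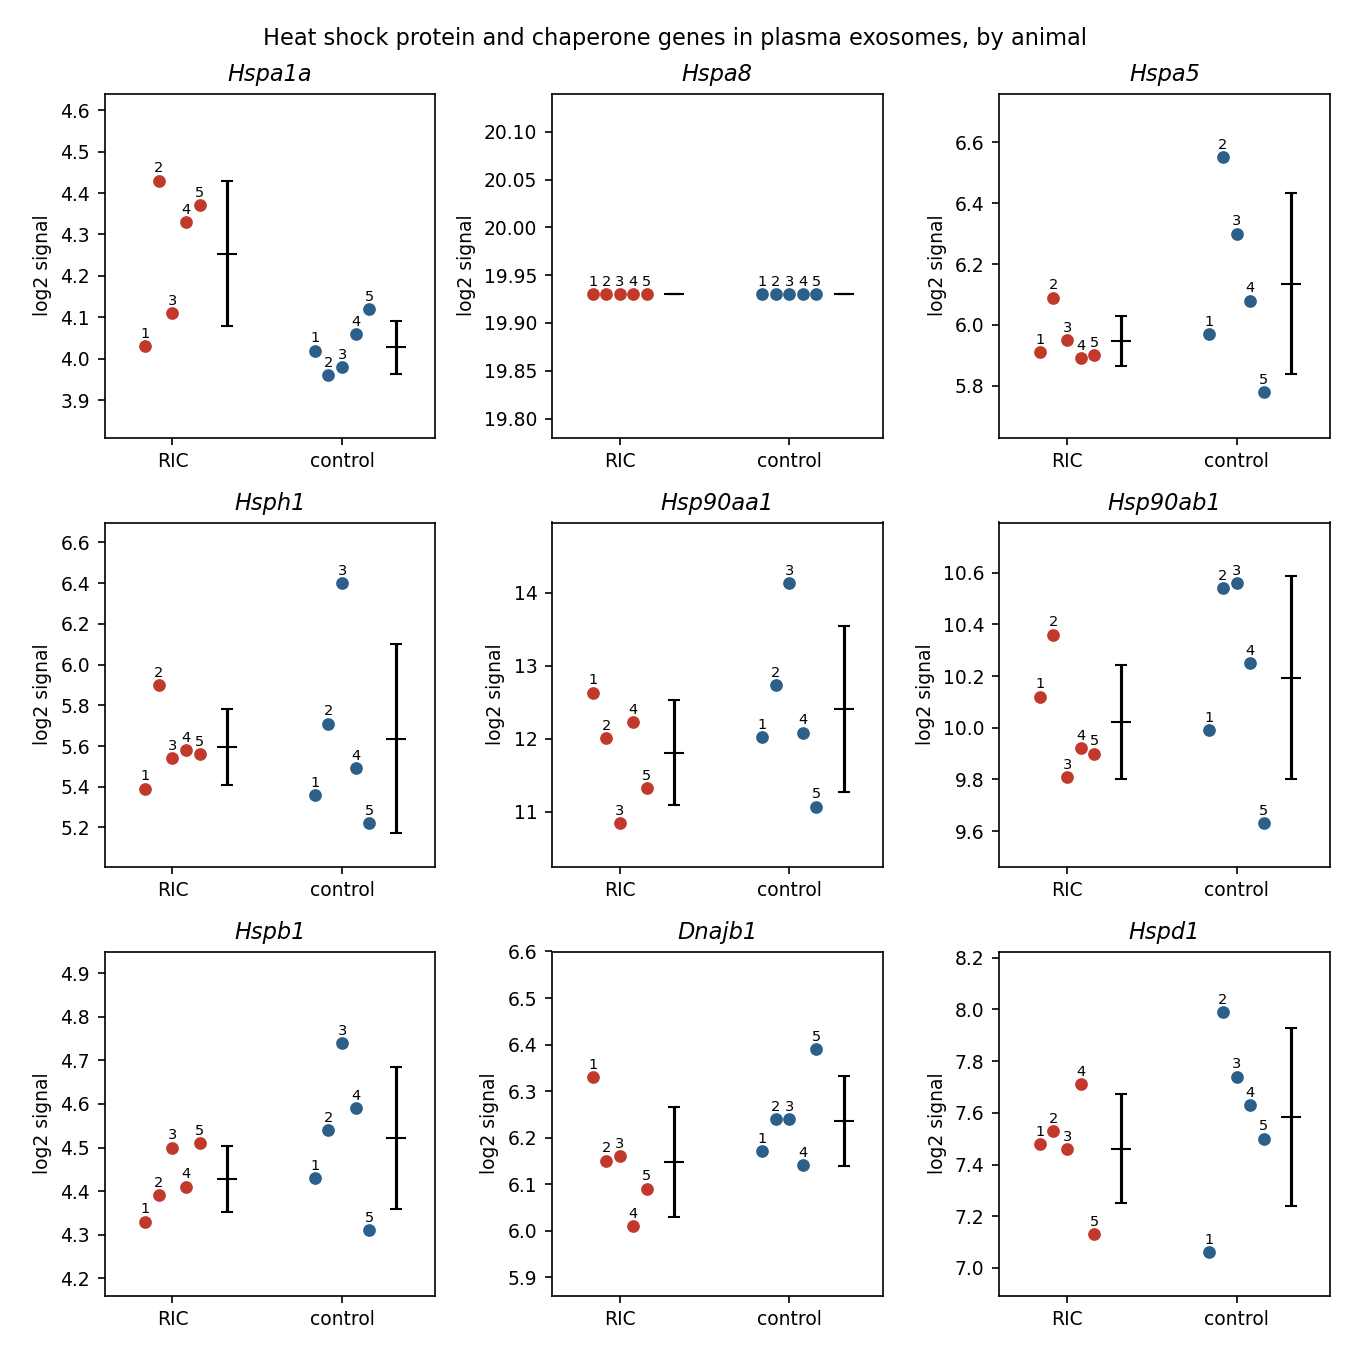
Log2 signal of each measured member in the 5 RIC rats (red, left) and the 5 control rats (blue, right), with the replicate number above each point and the mean ± SD (n = 5) as a black bar, each panel on its own axis. Hspa8 lies at 19.93 in all 10 animals, control 3 is highest for Hsp90aa1 (14.13) and Hsph1 (6.40), and the groups overlap in every panel that varies.

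Hspa1a, the stress-inducible HSP70 that serves as the textbook marker of a heat shock response, was near background. It measured 4.03, 4.43, 4.11, 4.33 and 4.37 in the RIC rats, against 4.02, 3.96, 3.98, 4.06 and 4.12 in the control rats. All 5 RIC values lay above the control median, 3 lay above the highest control value, and only RIC 2 exceeded the receptor 95th percentile. The means were 4.25 ± 0.17 in RIC and 4.03 ± 0.06 in control (log2 difference 0.23, SE 0.08, 95% interval 0.05 to 0.41, limma adjusted p = 0.401). The array median of the receptor clusters was itself higher in RIC rats, at 4.01 to 4.09, than in control rats, at 3.89 to 3.99. With arrays centred on those clusters the Hspa1a difference was 0.14 (limma adjusted p = 0.427), no longer under an unadjusted 0.05. The other Hspa1a cluster, TC2000001006.rn.1, ran from 3.71 to 3.82 in RIC and from 3.63 to 3.85 in control, with a difference of 0.01, so the clusters of the gene differed in what they showed. Hspa1a and Hspa1b are near-identical copies, and signal from the copy without a cluster of its own cannot be told apart here.

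Hspa8, the constitutive HSP70 that also uncoats clathrin vesicles, sat at the ceiling of 19.93 on all 10 arrays, as did 1.76% of all clusters, while 2.09% held 1 value on all arrays. At that ceiling its cluster could show neither a higher level nor a fall too small to leave the ceiling. A second cluster annotated to Hspa8, TC0500003013.rn.1, read 5.63 in all 5 RIC rats, against 5.58, 6.19, 5.63, 5.63 and 5.63 in the control rats. Exactly 5.63 was thus given for 8 of the 10 animals, and control 2 alone stood clearly above it (log2 difference -0.10, SE 0.11, limma adjusted p = 0.731). Repeats of this kind, 1 value on 8 or 9 of 10 arrays, were found in 0.935% of all clusters. The name of the second cluster places it on chromosome 5, and the ceiling cluster is named as unmapped. Neither is thus placed on chromosome 8, where the Hspa8 promoter lies, and signal from a copy of the gene cannot be told apart in them.

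Clusters annotated to Hspa8 pseudogenes, copies of the gene's mRNA inserted elsewhere in the genome, showed the same repeats. Among the 11 clusters of Hspa8 and its 9 pseudogenes, 5 held 1 value on 8 or more arrays. Hspa8-ps25 was at 19.93 throughout, Hspa8-ps12 read 18.31 on 9 arrays, and Hspa8-ps23 read 13.68 on 8. All 9 pseudogene clusters had a mean above the receptor limit, and the 8 that varied all gave a lower RIC mean (median difference -0.25) with a lowest adjusted p of 0.445. After repeated quantile normalization 3 of the 8 were lower, and without control 2 the median was -0.14. For Hspa8-ps33, the one with the widest difference, RIC rats had 8.49, 8.28, 7.48, 8.73 and 8.37 and control rats 8.69, 9.50, 8.95, 8.44 and 8.36 (log2 difference -0.52, limma adjusted p = 0.502). Pseudogene copies share long stretches with the parent gene, so signal of the parent and of the copies could not be separated.

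Hspa5, the HSP70 of the endoplasmic reticulum known as BiP, measured 5.91, 6.09, 5.95, 5.89 and 5.90 in RIC, against 5.97, 6.55, 6.30, 6.08 and 5.78 in control. The RIC rats lay within a range of 0.20 that the control range contained. The means were 5.95 ± 0.08 in RIC and 6.14 ± 0.30 in control (log2 difference -0.19, 95% interval -0.48 to 0.11, limma adjusted p = 0.589). The difference was -0.08 without control 2, -0.02 after repeated quantile normalization and -0.08 with the trend removed. Hsph1, a nucleotide exchange factor for HSP70 and a classic HSF1 target, measured 5.39, 5.90, 5.54, 5.58 and 5.56 in RIC, against 5.36, 5.71, 6.40, 5.49 and 5.22 in control. Control 3 was the highest of the 10 animals and control 5 the lowest. The difference was -0.04 (95% interval -0.52 to 0.43, limma adjusted p = 0.968), it turned to 0.15 without control 3, and its sign also turned under the scalings named above.

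Hsp90aa1, the inducible cytosolic HSP90, had the widest spread of all members. It measured 12.63, 12.01, 10.84, 12.23 and 11.32 in RIC, against 12.02, 12.73, 14.13, 12.08 and 11.07 in control. Control 3 stood at the top and RIC 3 at the bottom, with the other 8 animals mixed between them. The means were 11.81 ± 0.72 in RIC and 12.41 ± 1.13 in control (log2 difference -0.60, SE 0.56, limma adjusted p = 0.694). The 95% interval of the RIC to control ratio ran from 0.274 to 1.59, so neither a lower nor a higher level in RIC can be read from it. The difference was -0.17 without control 3, -0.36 without RIC 3 and -0.93 without control 5. The other Hsp90aa1 cluster gave -0.38 (limma adjusted p = 0.688), and in it too control 3 was highest, at 11.76.

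Hsp90ab1, the constitutive cytosolic HSP90, measured 10.12, 10.36, 9.81, 9.92 and 9.90 in RIC, against 9.99, 10.54, 10.56, 10.25 and 9.63 in control. The 2 highest values were those of control 2 and control 3, and the lowest was that of control 5. The means were 10.02 ± 0.22 in RIC and 10.19 ± 0.39 in control (log2 difference -0.17, 95% interval -0.60 to 0.26, limma adjusted p = 0.739), and the sign turned when quantile normalization was repeated (0.18). It was -0.09 without control 2, -0.08 without control 3 and -0.31 without control 5. Control 3 had the highest value in all 8 clusters of Hsp90aa1 and its pseudogenes, and in 5 of the 10 clusters of Hsp90ab1 and its pseudogenes. Over all clusters with a mean of 6 to 18 it was highest in 13.6%, while control 2 was highest in 36.1%. Hsp90b1, the HSP90 of the endoplasmic reticulum, was highest in control 3 as well, at 10.33, against 7.50 to 8.10 in the RIC rats.

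**Figure D2:**
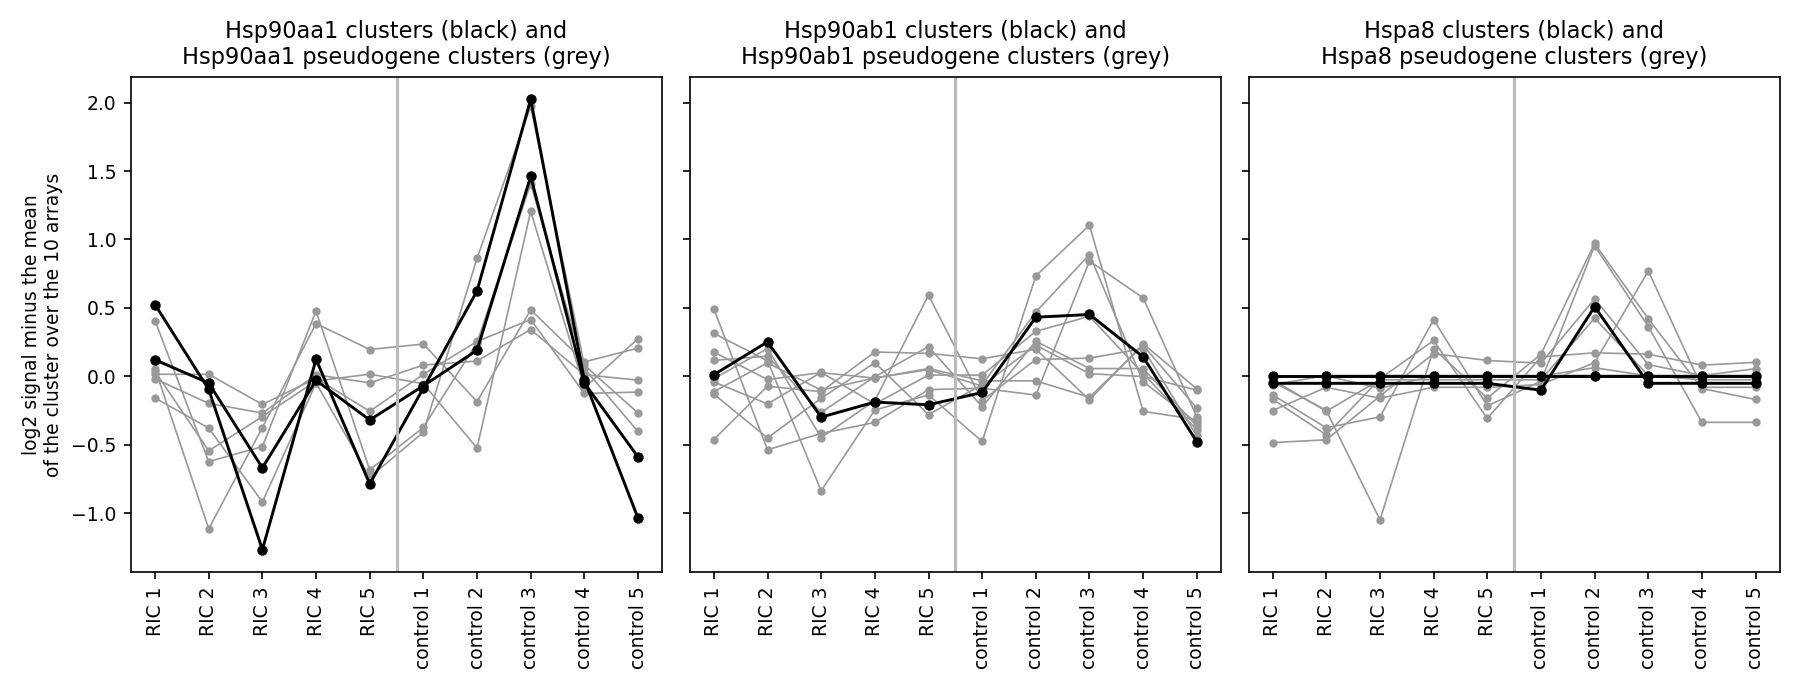
Log2 signal minus the cluster's mean over 10 arrays, for each animal (RIC 1 to 5, then control 1 to 5), in clusters annotated to the gene (black) and to its pseudogenes (grey). All 8 Hsp90aa1 lines peak in control 3, while the black Hspa8 lines are flat except in control 1 and 2.

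Hspb1, the small heat shock protein that also binds actin filaments, measured 4.33, 4.39, 4.50, 4.41 and 4.51 in RIC, against 4.43, 4.54, 4.74, 4.59 and 4.31 in control. All 5 RIC values lay below the control median, yet control 5 was the lowest animal. The means were 4.43 ± 0.08 in RIC and 4.52 ± 0.16 in control, just above the receptor limit of 4.38 (log2 difference -0.09, limma adjusted p = 0.653). The difference was -0.04 without control 3 and -0.15 without control 5. Its mean over the 10 arrays lay below the receptors' 99th percentile of 4.62.

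Dnajb1, the main J-domain partner of inducible HSP70, measured 6.33, 6.15, 6.16, 6.01 and 6.09 in RIC, against 6.17, 6.24, 6.24, 6.14 and 6.39 in control. Its values held together more closely than those of Hsp90aa1, with an SD over the 10 arrays of 0.11 against 0.95. The RIC mean was 6.15 ± 0.12 and the control mean 6.24 ± 0.10 (log2 difference -0.09, 95% interval -0.24 to 0.06, limma adjusted p = 0.621), with 2 RIC animals below every control and a sign that turned under the scalings named above. In terms of a ratio, the interval ran from 0.848 to 1.04, and the difference was -0.05 without RIC 4 or without control 5 and -0.13 without RIC 1. Hspd1, the mitochondrial HSP60, measured 7.48, 7.53, 7.46, 7.71 and 7.13 in RIC, against 7.06, 7.99, 7.74, 7.63 and 7.50 in control. Control 1 was lowest and control 2 highest, so the RIC range lay inside that of the controls. The difference was -0.12 (95% interval -0.50 to 0.26, limma adjusted p = 0.801), and it was 0.15 after repeated quantile normalization and 0.03 with the trend removed. It was -0.02 without control 2, -0.04 without RIC 5 and -0.25 without control 1.

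**Figure D3:**
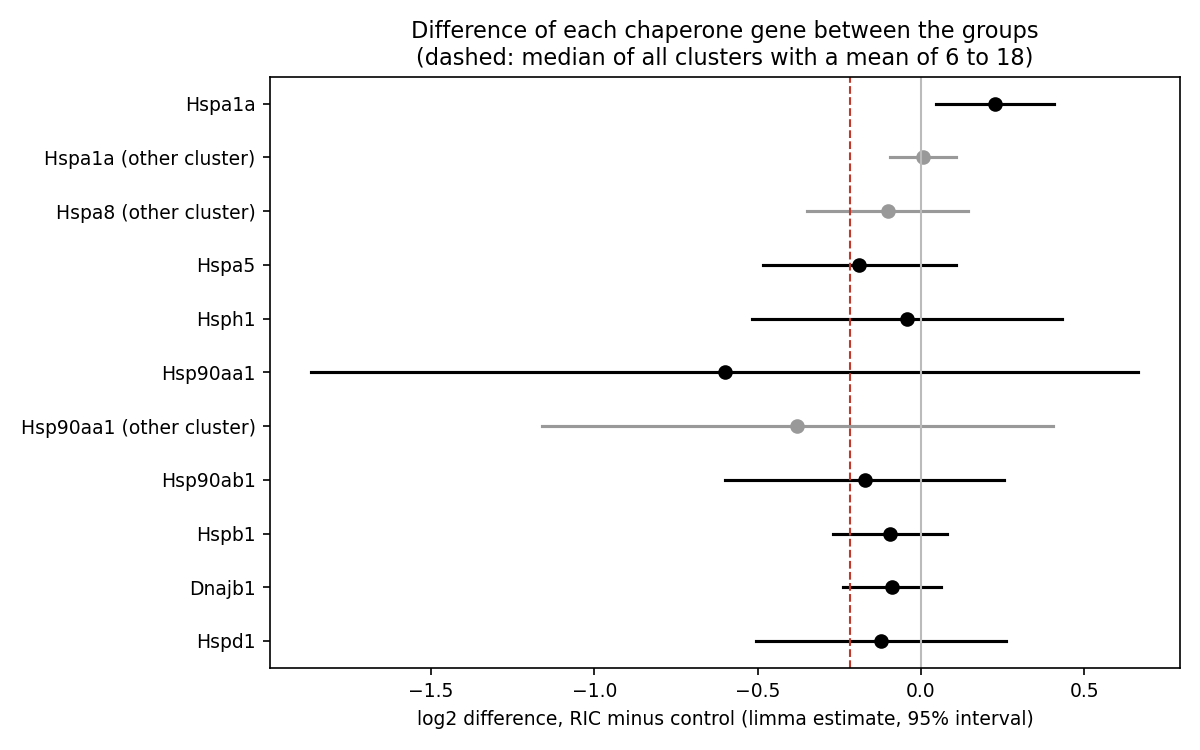
Log2 difference (RIC minus control) of each varying member (black) and of other clusters of the same genes (grey), as limma estimates with 95% intervals from 5 against 5 animals. The interval of Hspa1a alone lies above 0, at 0.05 to 0.41, Hsp90aa1 has the widest, and the dashed line marks the median of -0.22 over all clusters with a mean of 6 to 18.

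Chaperone genes beyond the members were described through 10 lists with 147 genes, of which 139 had a cluster and 138 varied. In RIC 90 of them were lower and 47 higher, with a median difference of -0.03. The number lower was 76 after repeated quantile normalization, 119 with arrays centred on their median and 125 with arrays centred on the receptor clusters. With limma 0 passed, and the lowest adjusted p was 0.313. An unadjusted p under 0.05 was reached by 9 of the 138, against 11.1% of all clusters (7.97% higher and 3.17% lower). Of the 96 list genes above the receptor limit 71 were lower (median -0.10), beside 60.7% of all varying clusters above it. Among clusters above that limit and up to 6, in the range of many of these genes, 53.3% were lower. The lists were not tested as sets. The plot of level against difference places them within the cloud of all clusters.

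**Figure D4:**
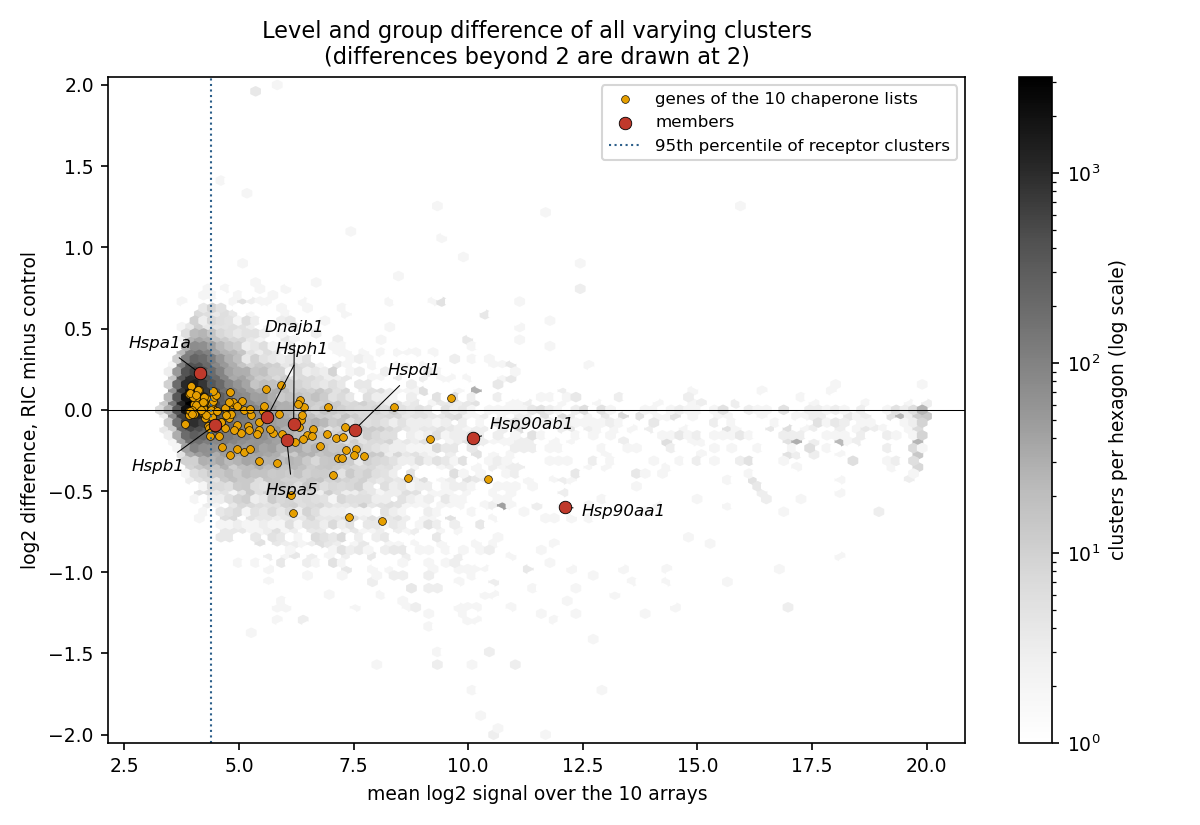
Log2 difference (RIC minus control) against the mean log2 signal over 10 arrays for all 67405 varying clusters (grey hexagons, darker for more clusters), the genes of the 10 chaperone lists (orange) and the members (red). The members run from 0.23 for Hspa1a near background to -0.60 for Hsp90aa1, and the other 6 lie between -0.19 and -0.04.

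In the HSP70 family 6 of 13 varying genes were lower and 7 higher (median 0.002), but 10 were lower with arrays centred on their median and 11 with arrays centred on the receptor clusters. Hspa4, an HSP110-type exchange factor, measured 8.48 ± 0.17 in RIC and 8.90 ± 0.62 in control (log2 difference -0.42, limma adjusted p = 0.560), and the difference was -0.21 without control 2 and -0.10 after repeated quantile normalization. All 4 HSP90 genes had a lower RIC mean (median difference -0.39), with Hsp90b1 at 7.77 ± 0.24 in RIC and 8.45 ± 1.25 in control (limma adjusted p = 0.633), although Hsp90ab1 turned under 1 scaling. Without control 3 the median of the 4 was -0.12, and the Hsp90b1 difference was -0.21 in place of -0.68. Of the 9 small heat shock protein genes 2 were above the receptor limit, 5 were lower and 4 higher, and 7 were lower after either centring or repeated quantile normalization. Chaperonins, whose TRiC complex folds actin and tubulin, were lower in 11 of 14 cases (median -0.11), but in 4 of 14 after repeated quantile normalization (median 0.07), in all 14 after either centring and in 7 of 14 without control 2. Its subunit gene Cct2 measured 9.07 ± 0.39 in RIC and 9.25 ± 0.48 in control (limma adjusted p = 0.806), and its sign turned after repeated quantile normalization.

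J-domain genes, which deliver clients to HSP70, were lower in 26 of 41 cases (median -0.06), with 25 to 37 lower over the other scalings. Of the 41, 4 had an unadjusted p under 0.05, all lower, beside 3.17% of all clusters lower at that p. Of the 41 genes 27 were above the receptor limit. In the limma fit of the clusters above that limit alone, 1527 of 22545 were lower at an unadjusted p under 0.05, a larger share than over all clusters. Sec63, the J-domain protein of the endoplasmic reticulum translocon, measured 5.86, 6.03, 5.79, 5.80 and 5.85 in RIC, against 6.26, 6.65, 6.61, 6.29 and 6.15 in control. Every RIC animal lay below every control (log2 difference -0.53, SE 0.10, limma adjusted p = 0.313). Its difference stayed between -0.61 and -0.36 in the 20 alternatives run. Dnajb6, which keeps aggregating proteins in solution, had 5.01, 4.77, 5.05, 5.11 and 4.91 in RIC, against 5.17, 5.51, 5.18, 5.16 and 5.12 in control, again without overlap (log2 difference -0.26, limma adjusted p = 0.397). Over all varying clusters the groups did not overlap in 1.78%. Dnajc4 measured 4.49 ± 0.08 in RIC and 4.65 ± 0.13 in control (limma adjusted p = 0.432). Dnaja4, a type of J-domain protein that heat induces, measured 8.39 ± 0.55 in RIC and 8.37 ± 0.27 in control, with a sign that turned when arrays were centred and when RIC 3 was left out.

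Co-chaperones of HSP70 and HSP90 were lower in 19 and higher in 6 of 26 cases (median -0.04), but 12 were lower after repeated quantile normalization and 24 after either centring. Chordc1, an HSP90 partner that is itself induced by heat, measured 5.90, 5.78, 6.14, 6.15 and 5.35 in RIC, against 6.44, 7.03, 6.50, 6.48 and 6.03 in control. The groups overlapped, since control 5 lay below RIC 3 and RIC 4 (log2 difference -0.63, limma adjusted p = 0.383). Cdc37l1, a relative of the kinase co-chaperone Cdc37, measured 4.83 ± 0.06 in RIC and 5.07 ± 0.12 in control (limma adjusted p = 0.348). Fkbp5, an HSP90 co-chaperone that glucocorticoids induce, lay on the other side with 5.74, 5.63, 5.67, 5.61 and 5.62 in RIC, against 5.49, 5.51, 5.47, 5.57 and 5.60 in control. Every RIC animal lay above every control, though RIC 4 and control 5 nearly touched (log2 difference 0.13, limma adjusted p = 0.376). Centred on the receptor clusters its difference was 0.04. Groups without overlap were found in 1.78% of all varying clusters. Ptges3, the HSP90 co-chaperone p23, measured 7.38 ± 0.07 in RIC and 7.65 ± 0.53 in control (log2 difference -0.28, limma adjusted p = 0.650), and the difference was -0.07 without control 3 and -0.02 after repeated quantile normalization.

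Genes of endoplasmic reticulum folding were lower in 17 and higher in 6 of 23 cases (median -0.11), with 14 to 23 lower over the other scalings. Xbp1, the transcription factor of the unfolded protein response, measured 7.10, 7.35, 7.03, 6.80 and 7.02 in RIC, against 7.52, 7.88, 8.38, 7.96 and 6.87 in control. Control 5 lay among the RIC animals, while the other 4 controls lay above them all (log2 difference -0.66, SE 0.25, limma adjusted p = 0.412). Calr, the lectin chaperone calreticulin, measured 10.23 ± 0.58 in RIC and 10.65 ± 0.48 in control (log2 difference -0.42, limma adjusted p = 0.613), with -0.10 after repeated quantile normalization, -0.28 without control 3 and -0.24 without RIC 5. The 7 listed genes whose promoters hold the stress element were Hspa5, Hsp90b1, Dnajc3, Calr, Canx, Creld2 and Xbp1, and 6 of them had a lower mean in RIC (median of the 7 differences -0.40), ranging from -0.68 for Hsp90b1 to 0.07 for Canx, the membrane lectin calnexin, beside 77.9% of all clusters lower at a mean of 6 to 18. Without control 3 the median of the 7 was -0.21, after repeated quantile normalization -0.16 and with the trend removed -0.26. Over the 20 alternatives Canx ran from -0.013, with arrays centred on the receptor clusters, to 0.39, and its sign turned in 1 of them. Of the 7 genes 6 were above the receptor limit, 5 of them lower, beside 60.7% of all varying clusters above it. Of the listed genes with a heat shock element, 3 of 3 varying genes with the 3-unit form were lower (median -0.12) and 11 of 14 with the 2-unit form (median -0.09), but after repeated quantile normalization 0 of 3 and 6 of 14 were. None of the 7 passed with limma over all clusters, 1 (Xbp1) had an unadjusted p under 0.05, and they were grouped by sequence after the group values had been seen.

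Mitochondrial chaperone genes were lower in 7 and higher in 6 of 13 cases (median -0.004), but 12 were lower after either centring and 5 after repeated quantile normalization. Hspe1, the lid of the Hspd1 chamber, measured 7.60 ± 0.25 in RIC and 7.88 ± 0.16 in control (log2 difference -0.28, limma adjusted p = 0.454), and the difference was 0.0025 after repeated quantile normalization. Of 5 heat shock factor and regulator genes all 5 were lower, by a median of only -0.03, and 2 were above the receptor limit. Hsf1 itself was at background, with 4.01 ± 0.07 in RIC and 4.04 ± 0.13 in control, and its sign turned without control 3 (0.024). Hsbp1, a small HSF1-binding protein, measured 7.09 ± 0.20 in RIC and 7.39 ± 0.29 in control (log2 difference -0.30, limma adjusted p = 0.480), with -0.19 without control 2 and -0.05 after repeated quantile normalization. Prefoldin genes split into 2 lower and 2 higher, with Pfdn6 at 6.18, 5.96, 5.90, 5.81 and 6.15 in RIC, against 5.95, 5.80, 5.96, 5.94 and 5.60 in control (limma adjusted p = 0.556).

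**Figure D5:**
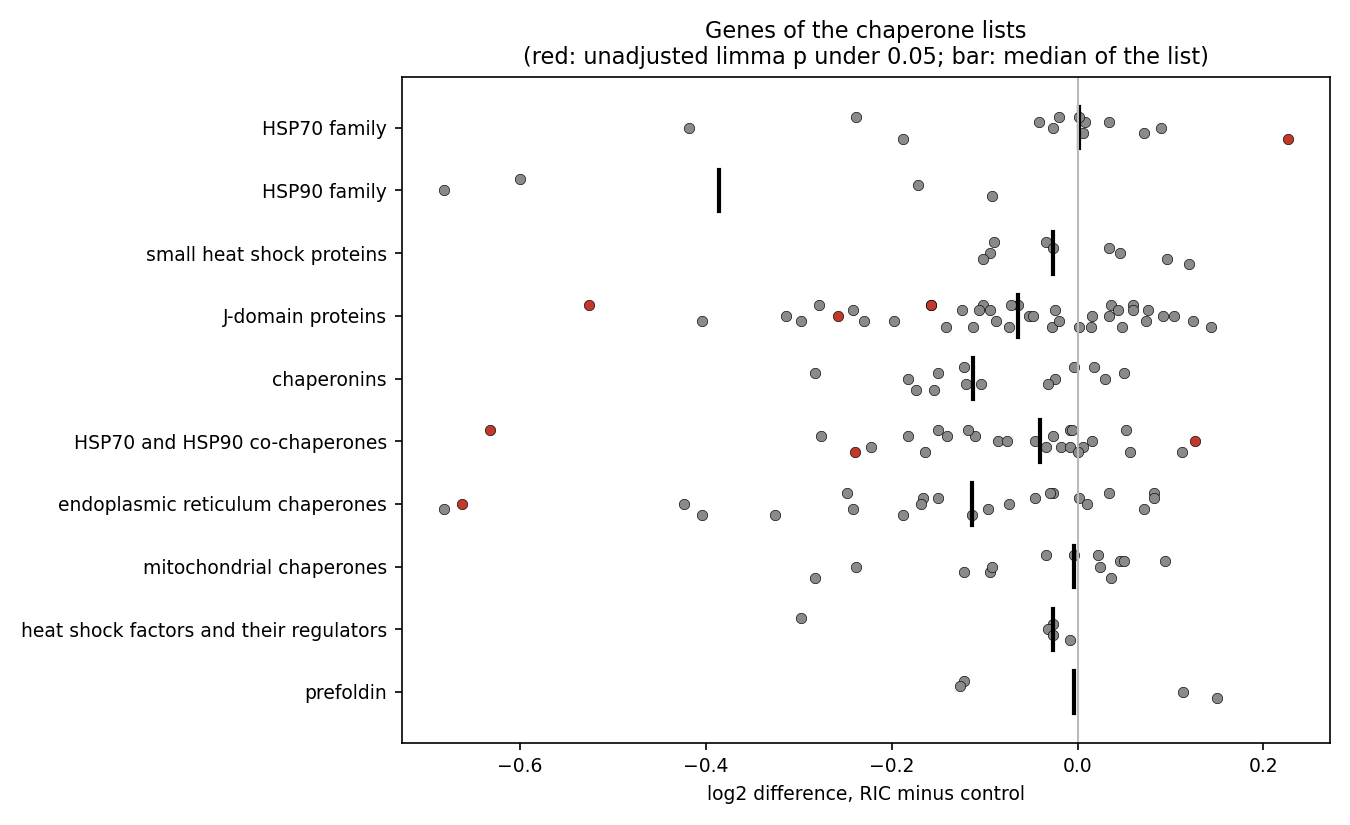
Log2 difference (RIC minus control) of each varying gene (points) in the 10 chaperone lists, with the list's median as a bar and genes with an unadjusted limma p under 0.05 in red. Most points lie between -0.3 and 0.15, Hsp90b1, Xbp1, Chordc1, Hsp90aa1 and Sec63 lie beyond -0.5, and Hspa1a is the rightmost point at 0.23.

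Patterns over the 10 animals were set beside those of other genes for the 3 members with the widest spread, among 2645 to 2647 clusters with 1 symbol, a mean above 6 and no value at the ceiling. Hsp90aa1 was closest to Sf3b2, a splicing factor subunit (Pearson r = 0.976, Spearman rho = 0.976), to Crbn, the substrate receptor cereblon (r = 0.974, rho = 0.891), and to the chaperonin subunit Cct2 (r = 0.972, rho = 0.903). Without control 3 and RIC 3, the animals farthest from its median, these r values were 0.927, 0.923 and 0.932. Hsph1 was closest to Hnrnpul2 (r = 0.955), Kif1c (0.952) and Foxo1 (0.926), and without control 3 and RIC 2 these were 0.828, 0.902 and 0.766. Hsp90ab1 was closest to Nsfl1c (r = 0.965), Ggnbp2 (0.962) and Ctnnb1 (0.961), and without control 2 and control 3 these were 0.928, 0.934 and 0.922. The genes were picked as the highest of many correlations over the same arrays, so the values are descriptive and no p is given.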

How the data were processed

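The authors deposited 1 table of log2 values for 68842 transcript clusters in 10 arrays, 1 per animal, and the submitters' processing notes name Affymetrix Expression Console. The sources used here give no version, summarisation, normalization or genome build. The series title speaks of microRNA, while the clusters measured cover whole genes. Deposited log2 values ran from 2.71 to 19.93. Number of arrays limits precision.

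Symbols came from the platform annotation (23456 clusters with 1 symbol, 495 with several, 44891 with none), and all 9 members matched RefSeq by gene number. Promoter sequences are RefSeq's, build GRCr8. Groups came from the titles. RIC minus control was fitted without further normalization, filter or covariate in limma 3.58.1 (lmFit, eBayes; R 4.3.3), adjusting p by Benjamini-Hochberg over all clusters. The step was tested on simulated data with independent noise and added changes larger than any member or chaperone list difference here. That test does not show how often differences of the present size would be called. No p-value covers more than the spread among these animals.

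Members and lists were chosen with earlier results of these data known. The text names all members, list genes over the receptor limit whose unadjusted p was under 0.05 (up to 4 per list) and each list's varying gene of highest level. Hsp90b1, Canx, Hsf1 and the pseudogenes were named after their values were seen. Alternatives covered scaling, variance model, array weights, filters, replicate block and left-out animals.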

Additional observations from a re-analysis of the deposited data

Results flagged for a closer look

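Of 58 groups of 5 animals examined for a single distant value, 4 held one, and chance alone gives about 1 in 20. The second Hspa8 cluster read 6.19 in control 2, with the nearest control at 5.63. Dnajb6 read 5.51 in control 2, with the nearest control at 5.18, and without that animal its difference was -0.19 (limma adjusted p = 0.559). Dnajc4 read 4.35 in RIC 3, with the nearest RIC animal at 4.50. Canx read 9.87 in RIC 3, with the nearest RIC animal at 9.63.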

How the results depend on the processing

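In all 20 alternatives run on the fit, 0 clusters, 0 members and 0 genes of the chaperone lists passed with limma, with 2393 (clusters above the receptor limit alone) to 8391 clusters at an unadjusted p under 0.05. Of these clusters 71.6% were higher in RIC as deposited, 26.8% after centring on the array median, 15.1% after centring on the receptors, 49.1% after repeated quantile normalization and 47.8% with the level-dependent trend removed. Members lower in RIC, 7 as deposited, numbered 3 after repeated quantile normalization and 4 with the trend removed. The members' median minus that of all clusters, -0.14 as deposited, was 0.0786 after repeated quantile normalization. That normalization turned the sign of Hsp90ab1 (0.18), Dnajb1 (0.0799), Hsph1 (0.0695), Hspd1 (0.148), Cct2 (0.11) and Hspe1 (0.0025). Removal of the trend turned Dnajb1 (0.0238), Hsph1 (0.0359) and Hspd1 (0.0295). Dnaja4, 0.02 as deposited, gave -0.048 and -0.069 after centring on the array median and the receptors. With single animals left out, Hsph1 ranged from -0.15 to 0.15, turning without RIC 1 (0.01) or control 3 (0.15), and Cct2 from -0.318 to 0.002, turning without control 3. Dnaja4 ran from -0.175 without RIC 3 to 0.1725 without RIC 5, and was -0.05, -0.0615 and -0.034 without RIC 4, control 3 and control 4. Canx ran from -0.013 after centring on the receptors to 0.389 over the 20 alternatives. Hsf1 ranged from -0.061 to 0.024 with single animals left out. The cause was not tested. The labels name no pairs of animals. Deviations of same-numbered animals correlated at -0.05 to 0.18, which cannot show whether they were paired or processed together. With the replicate block 0 members passed, 7 were lower and the lowest adjusted p among them was 0.423. Hspa8 at the ceiling and Hspa1a near background limit what can be read.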
